A study of Mus musculus with 16 samples.

Results

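The brush border hydrolases described here are 9 enzymes of the apical membrane of absorptive intestinal cells: the meprin subunits Mep1a and Mep1b, the peptidases Naaladl1, Enpep, Anpep and Dpp4, the alkaline phosphatase Alpi, and the disaccharidases Sis and Treh. They were listed by name as well-known ectoenzymes of the brush border, with earlier results of these data known, and are 9 of the 54123 genes with summed reads. Their reads were followed in bulk RNA-seq of 16 libraries of mouse colon organoids, 2 in each of 8 groups. The groups cross the region of origin (proximal or distal colon), a CRISPR guide (Scramble-sgRNA, a non-targeting control, or Cdx2-sgRNA, against the intestinal transcription factor Cdx2) and the medium of the last 3 days (WENR-plus, with Wnt3a, EGF, Noggin and R-spondin 1, or WENR-minus, which lacks them). All groups, the controls included, came from 8-week-old female mice heterozygous for a Cre-inducible BrafV600E allele and for a tdTomato reporter at ROSA26, and no Cre step is described for these cultures. In every group the guide was brought in by lentivirus and the cells carrying it were selected with blasticidin for 2 weeks. Organoids came from 2 mice, from the first 1 cm of the proximal colon and the last 1 cm of the descending colon, and RNA was taken in month 4 of culture, after 2 days of WENR-plus followed by 3 days of one or the other medium. Cdx2-sgRNA organoids were grown out of individual cells with frameshifts in both alleles, whereas no such step is described for Scramble-sgRNA, so the guide and descent from 1 cell cannot be told apart. The paper describes the biological replicates as independent mice, but the labels do not name the mouse of each library. Organoids were split before growth in either medium, so WENR-plus and WENR-minus libraries can share effects of an organoid line. The test treated them as separate groups, and its p-values measure the spread between the libraries of a group.

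The brush border is the carpet of microvilli on enterocytes and colonocytes, and its membrane hydrolases complete the digestion of peptides and sugars and dephosphorylate microbial products at the cell surface. Most are anchored in the apical membrane with the catalytic domain facing the lumen, and their genes are used as classical markers of enterocyte differentiation. Many are much more abundant in the small intestine than in the colon, and the meprins are known from both ileum and colon. Cdx2, Hnf4a and GATA factors are established regulators of several of them, Sis being the textbook Cdx2 target.

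Libraries held 12465194 to 18922143 estimated reads (median 16836530), of which 15.4% to 28% fell on mitochondrial ribosomal RNA. Colon epithelium markers were high in every library (summed level 3915 to 17621 CPM, counts-per-million of a library size scaled by the trimmed mean of M-values), and summed fibroblast, leukocyte and endothelial or pericyte markers did not exceed 1.12, 7.91 and 7.56 CPM. Cdx2 RNA was lower with Cdx2-sgRNA in proximal organoids, at 72.4 ± 2.00 against 176.8 ± 36.5 CPM (SD, n = 2) in WENR-minus (log2 fold change −1.29, adjusted p = 0.000679) and 31.6 ± 2.44 against 134.4 ± 10.3 CPM in WENR-plus (−2.09, adjusted p = 5.48e-05). In distal organoids it was 106.2 ± 28.5 against 111.2 ± 1.69 CPM in WENR-minus and 56.2 ± 8.52 against 72.4 ± 6.28 CPM in WENR-plus, and neither difference passed the test. RNA level does not report a frameshift, so it does not check the distal label. In proximal Cdx2-sgRNA libraries the summed goblet markers (29.2 to 50.4 CPM) and enteroendocrine markers (0.846 to 1.86 CPM) lay below those of all other libraries (at least 417.7 and 50.9 CPM).

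RefSeq start-site windows for GRCm38.p6, 250 bases before to 50 after the start, were found for 7 of the 9 members, with none for Mep1b and Naaladl1. They were searched on both strands for 6 words, namely CAATAAA as a word read by CDX factors, with the variant CCATAAA counted beside it, CAAAGTCCA for HNF4, the GATA factor word AGATAA, a TCF/LEF word spelled CTTTGAT, and the TATA box word TATAAA. The 4 windows that hold a CDX or HNF4 word are shown because the comparisons below concern a Cdx2 guide and because Hnf4a RNA was lower with it in proximal organoids. They are Sis at chr3:72967814-72968113 (minus strand), Mep1a at chr17:43502724-43503023 (minus), Alpi at chr1:87101557-87101856 (minus) and Treh at chr9:44672983-44673282 (plus), each read 5′ to 3′ on the strand of its gene, with every matched word in capitals.
Sis: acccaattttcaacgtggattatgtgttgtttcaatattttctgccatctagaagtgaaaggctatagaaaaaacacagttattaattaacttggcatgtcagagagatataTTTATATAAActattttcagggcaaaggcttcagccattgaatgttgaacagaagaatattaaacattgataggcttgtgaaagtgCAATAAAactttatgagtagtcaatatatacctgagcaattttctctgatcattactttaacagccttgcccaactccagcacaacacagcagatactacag
Mep1a: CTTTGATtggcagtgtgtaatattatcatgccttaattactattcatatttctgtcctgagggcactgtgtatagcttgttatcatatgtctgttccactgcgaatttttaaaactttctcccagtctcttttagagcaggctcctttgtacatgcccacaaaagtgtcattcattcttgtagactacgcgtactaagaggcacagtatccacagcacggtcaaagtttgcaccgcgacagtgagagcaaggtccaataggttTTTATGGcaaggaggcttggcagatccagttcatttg
Alpi: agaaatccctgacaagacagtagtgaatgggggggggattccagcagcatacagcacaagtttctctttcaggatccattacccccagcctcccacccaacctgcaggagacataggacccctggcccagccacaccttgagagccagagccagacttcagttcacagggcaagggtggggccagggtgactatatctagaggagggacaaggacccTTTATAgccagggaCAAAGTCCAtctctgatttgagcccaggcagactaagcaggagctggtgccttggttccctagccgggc
Treh: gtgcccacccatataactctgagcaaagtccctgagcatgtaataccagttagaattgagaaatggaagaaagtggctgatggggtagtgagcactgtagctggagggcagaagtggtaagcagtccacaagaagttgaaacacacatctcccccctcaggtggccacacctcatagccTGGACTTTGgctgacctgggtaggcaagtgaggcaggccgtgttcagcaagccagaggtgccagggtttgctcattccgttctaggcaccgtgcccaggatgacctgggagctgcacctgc
In Sis, CAATAAA began 52 bases upstream of the start, and an overlapping pair of TATAAA words, one on each strand, 138 and 134 bases upstream. Mep1a held CTTTGAT at the first base of its window and the reverse complement of CCATAAA at bases 14 to 20 after the start. The HNF4 word lay 19 bases upstream in Alpi, on the strand of the gene and downstream of a reverse TATAAA, and 71 bases upstream in Treh on the opposite strand. CAATAAA is present in 4.6% of all 32851 RefSeq windows of this length, CCATAAA in 2.75%, CAAAGTCCA in 0.475%, AGATAA in 11.2%, CTTTGAT in 3.73% and TATAAA in 13.6%. Of the other windows, Dpp4 held AGATAA and TATAAA, Enpep held TATAAA, and Anpep held none of the 6 words. The Anpep window (chr7:79848161-79848460, minus strand) lies inside the gene as counted here (chr7:79821803-79861059). It therefore does not cover the outermost start of that gene. These matches describe letters in a window and do not show binding.

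Compared per unit of transcript length, in transcripts-per-million (TPM), the meprins and Alpi made up most of the hydrolase RNA wherever the level was high. The summed mean TPM of the 9 members was 455.8 in distal Cdx2-sgRNA WENR-minus, 234.9 in distal Scramble-sgRNA WENR-minus and 220.2 in proximal Scramble-sgRNA WENR-minus. It was 48.9 in distal Cdx2-sgRNA, 33.8 in proximal Scramble-sgRNA and 29.0 TPM in distal Scramble-sgRNA in WENR-plus, and 8.36 and 3.97 TPM in proximal Cdx2-sgRNA in WENR-plus and WENR-minus. The order of the last pair is set by individual libraries, with sums of 4.14 and 12.6 TPM in WENR-plus and 1.19 and 6.75 TPM in WENR-minus. Mep1b, Mep1a and Alpi ranked in this order above the other members by mean TPM in 3 of the 4 WENR-minus groups. In distal Cdx2-sgRNA WENR-minus Mep1b stood at 172 ± 1.48 and Mep1a at 156 ± 17.3 TPM, which do not differ beyond their spread, and Alpi followed at 94.5 ± 0.730 TPM. In distal Scramble-sgRNA WENR-minus Mep1b (84.0 ± 37.6), Mep1a (78.3 ± 26.4) and Alpi (61.3 ± 5.52 TPM) overlapped. In proximal Scramble-sgRNA WENR-minus Mep1b stood at 114 ± 28.9, above Mep1a (49.2 ± 3.08) and Alpi (45.7 ± 19.7 TPM), which overlapped each other. The remaining 6 members had group means of at most 13.9 TPM, which Treh reached in distal Cdx2-sgRNA WENR-minus. In proximal Cdx2-sgRNA WENR-minus Dpp4 alone made up 74.6% of the summed mean TPM, nearly all of it from replicate 2.

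**Figure D1:**
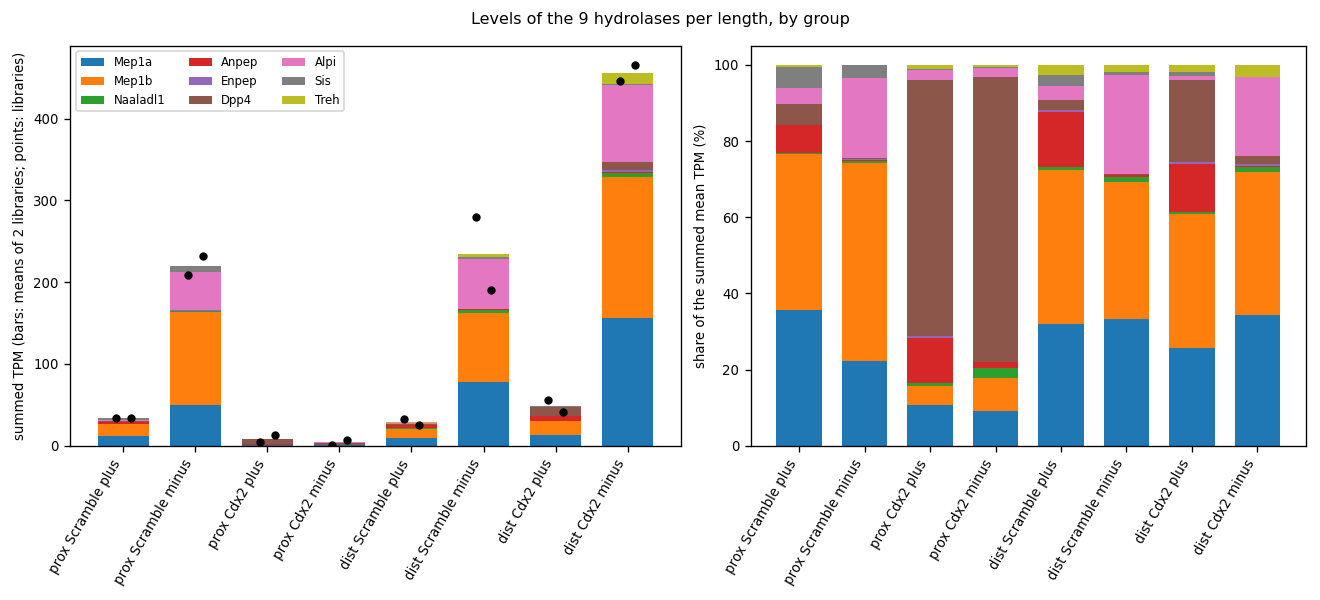
Mean TPM of the 9 members stacked for each of the 8 groups (left) and the same values as a percentage of the members' sum (right), from 2 libraries per group. The WENR-minus bars of 3 groups reach 220.2 to 455.8 TPM and are filled mostly by Mep1b, Mep1a and Alpi, whereas the proximal Cdx2-sgRNA bars reach 3.97 and 8.36 TPM and are filled mostly by Dpp4.

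Withdrawal of the niche factors was compared first, since it allows organoid cells to differentiate. Reads were tested with edgeR's quasi-likelihood test across 15289 genes, which all 9 members entered, and a change was called at a Benjamini-Hochberg adjusted p under 0.05 with an absolute log2 fold change over 1. In WENR-minus against WENR-plus, 4 members rose and 1 fell in proximal Scramble-sgRNA, 5 rose and 1 fell in distal Scramble-sgRNA, and 5 rose and 1 fell in distal Cdx2-sgRNA. Over all genes tested, 8.73% rose and 8.24% fell in the first of these comparisons, 12.2% and 14.2% in the second, and 14.9% and 18.1% in the third (17%, 26.4% and 33.1% in either direction). The members' median log2 fold change was 2.36, 3.01 and 4.00 in these comparisons, beside −0.06, −0.11 and −0.10 over all genes. In proximal Cdx2-sgRNA 1 member was called, Anpep, which fell, beside 6.4% of all genes called and 2.98% called lower, with 2 members at an unadjusted p under 0.05 and DESeq2 calling 2. There the members' median was −0.38 with genes at or under 3 reads per library in a group set to that floor, beside −0.03 over all genes.

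Markers of several cell types moved with the medium as well. On withdrawal, 5 of the 6 absorptive colonocyte markers were called higher in proximal Scramble-sgRNA, distal Scramble-sgRNA and distal Cdx2-sgRNA alike. Their summed level went from 183 to 249.5 CPM to 6669 to 9957 CPM in proximal Scramble-sgRNA, from 252.1 to 411.8 to 7043 to 11109 CPM in distal Scramble-sgRNA and from 426.8 to 624.2 to 14895 to 15979 CPM in distal Cdx2-sgRNA. Goblet markers were called higher for 3 of 5 in each of these backgrounds, with sums of 417.7 to 1942 CPM in their WENR-plus libraries and 4356 to 12819 CPM in WENR-minus. Enteroendocrine markers were called higher for 4, 3 and 3 of 5, with sums of 50.9 to 158.6 CPM in WENR-plus and 115.8 to 449.4 CPM in WENR-minus. Of 5 crypt stem cell markers 4, 4 and 5 were called lower (324.4 to 521.8 CPM in WENR-plus, 92.2 to 192.9 CPM in WENR-minus), and all 4 proliferation markers were called lower (922.8 to 1302 and 92.4 to 382.3 CPM). In proximal Cdx2-sgRNA 3 of the 5 stem cell markers were called lower and 1 colonocyte marker, Krt20, higher. The colonocyte sums there were 135.9 to 239.9 CPM in WENR-plus and 517.4 to 1591 CPM in WENR-minus. There edgeR called 0 goblet, enteroendocrine and proliferation markers, with 0 at an unadjusted p under 0.05, and the proliferation sums were 546.1 to 653.7 CPM in WENR-minus and 517.7 to 623.4 CPM in WENR-plus. No gene of these 5 lists was at 0 reads throughout a group, apart from 1 enteroendocrine gene in proximal Cdx2-sgRNA WENR-plus. Small intestine marker sums were 22.7 to 40.7 CPM in WENR-plus and 297.7 to 423.8 CPM in WENR-minus in proximal Scramble-sgRNA. They were 11.45 to 30.9 and 86.3 to 125.8 CPM in distal Scramble-sgRNA, and 18.5 to 37.4 and 186.8 to 209.1 CPM in distal Cdx2-sgRNA. In proximal Cdx2-sgRNA they were 0.696 to 0.846 and 0.891 to 1.005 CPM. The part of these shifts in the hydrolase result was not tested.

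The question the design puts to Cdx2 is whether its loss acts alike in the 2 ends of the colon. Against Scramble-sgRNA, 6 members were lower in proximal Cdx2-sgRNA organoids in WENR-minus, where 21.2% of all genes were called and 12.1% were called lower, and 4 were lower in WENR-plus, where 15.9% were called and 8.94% lower. The WENR-plus count was 2 without proximal Cdx2-sgRNA replicate 2. The members' median log2 fold change, with genes at the floor set to their bound, was −3.54 in WENR-minus and −1.09 in WENR-plus, beside −0.000325 and −0.05 over all genes. In distal organoids 1 member, Mep1b, was higher in WENR-minus, beside 5.25% of all genes called and 2.24% called higher (0 members without either distal Cdx2-sgRNA library or Scramble-sgRNA replicate 2, but 3 with DESeq2, 3 with the replicate number as a block and 5 with no filter on low counts). In distal WENR-plus edgeR and DESeq2 called 0 members, and 1 was at an unadjusted p under 0.05 (Dpp4). There edgeR called 0.262% of all genes, and DESeq2 called 175 of 15289. The members' median was 1.12 in distal WENR-minus and 0.45 in distal WENR-plus, beside 0 and −0.01 over all genes. The difference between the proximal and the distal response, tested as an interaction, was called for 6 members in WENR-minus, where 14.3% of all genes were called, and for 2 members in WENR-plus, where 4.98% were called. The difference of the medium response between the guides was called for 3 members in proximal organoids, beside 3.6% of all genes, a count that fell to between 0 and 1 on leaving out any 1 of the 8 libraries except Cdx2-sgRNA WENR-minus replicate 1 and Scramble-sgRNA WENR-minus replicate 2. In distal organoids edgeR and DESeq2 called 0 members for it. By edgeR 0 members were at an unadjusted p under 0.05 and 0 of all genes were called, whereas DESeq2 called 99 of 15289 genes. Between regions of Scramble-sgRNA the medium response was called for 0 members by either tool, with 1 (Treh) at an unadjusted p under 0.05. For this difference edgeR called 0.0719% of all genes, and DESeq2 called 134 of 15289.

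Other cell-type markers moved with the proximal comparison. In WENR-minus the summed level of 6 absorptive colonocyte markers was 517.4 to 1591 CPM in Cdx2-sgRNA and 6669 to 9957 CPM in Scramble-sgRNA, with 4 of the 6 called lower (Car1, Fabp2, Slc26a3 and Aqp8). Krt20, a keratin of differentiated surface cells chosen after its values were seen, stood at a mean of 1031 CPM with Cdx2-sgRNA and 787.6 CPM with Scramble-sgRNA. In the Cdx2-sgRNA library with a colonocyte sum of 517.4 CPM, Krt20 lay below that Scramble-sgRNA mean. The order of the means therefore rests on the other library. All 5 goblet and all 5 enteroendocrine markers were called lower, and the summed proliferation markers were 546.1 to 653.7 against 180.4 to 374.7 CPM, with Mki67 called higher. The summed level of 7 small intestine markers was 0.891 to 1.00 against 297.7 to 423.8 CPM, with 2 of the 4 tested called lower and 3 of the 7 at 0 reads throughout each group. In WENR-plus the colonocyte sums overlapped (135.9 to 239.9 CPM with Cdx2-sgRNA, 183 to 249.5 CPM with Scramble-sgRNA), with 2 called lower and Krt20 higher. There 4 of 5 goblet and 4 of 5 enteroendocrine markers were called lower. The proliferation sums were lower with Cdx2-sgRNA in that medium, at 517.7 to 623.4 against 1080 to 1251 CPM, with Mki67 called lower. Tuft marker sums were 3.31 to 11.5 against 0.0478 to 0.533 CPM, with Dclk1, the 1 of 4 that was tested, called higher. The tuft sums in WENR-minus were 2.45 to 6.88 against 0 to 0.313 CPM, with Dclk1 not called. Small intestine markers summed to 0.696 to 0.846 against 22.7 to 40.7 CPM in WENR-plus. The 5 endothelium and pericyte markers summed to 0.0742 to 0.423 against 4.33 to 7.56 CPM in WENR-minus and to 0.0580 to 0.106 against 2.19 to 7.07 CPM in WENR-plus, with Pdgfrb, 1 of the 2 tested, called lower in both. In distal WENR-minus, sums with Cdx2-sgRNA and Scramble-sgRNA did not overlap for colonocyte (14895 to 15979 against 7043 to 11109 CPM), small intestine (186.8 to 209.1 against 86.3 to 125.8 CPM), stem cell (92.2 to 98.8 against 140.4 to 165 CPM) and proliferation markers (92.4 to 173.5 against 224.6 to 382.3 CPM). Of these lists, Car4 and Apoa4 were called higher and Fabp2 lower, and 3 of the 4 proliferation markers were at an unadjusted p under 0.05 with none called. In bulk samples fewer cells of a type and less RNA per cell cannot be told apart, and the part of these shifts in the hydrolase result was not tested.

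**Figure D2:**
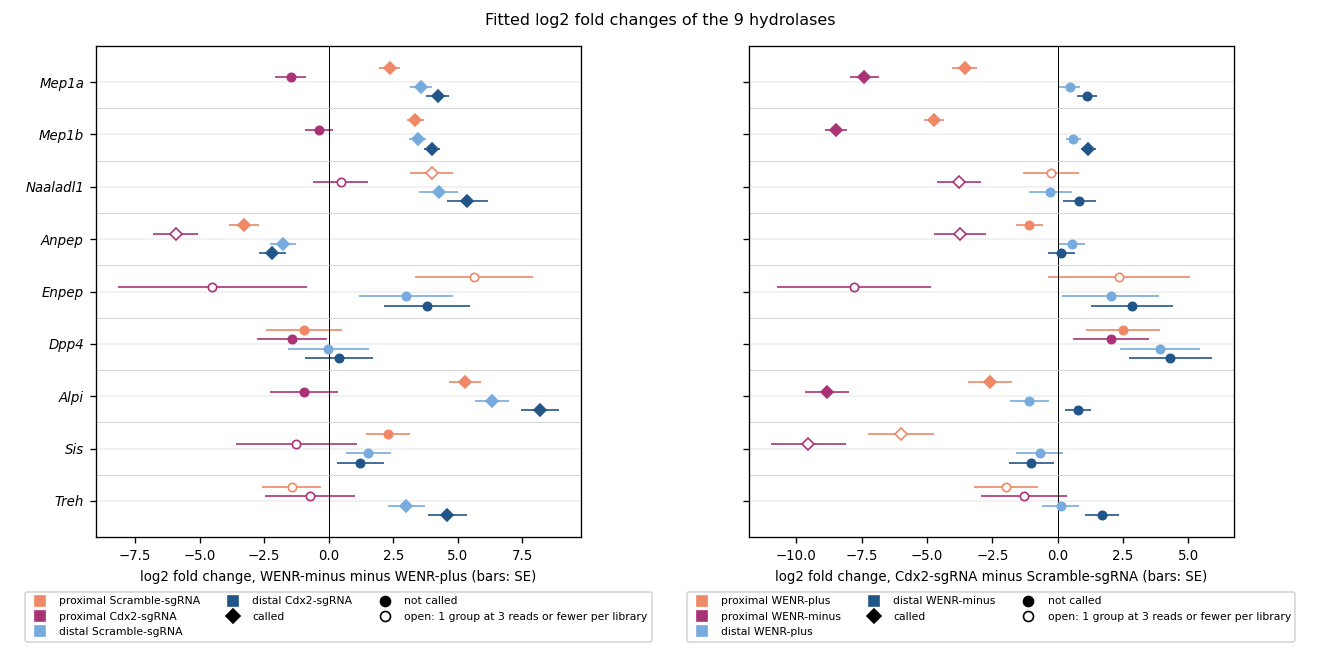
Fitted log2 fold change of each member for WENR-minus against WENR-plus (left) and for Cdx2-sgRNA against Scramble-sgRNA (right), each in 4 settings given by region and guide or medium, with bars for the standard error. Diamonds are changes called at adjusted p under 0.05 with an absolute log2 fold change over 1, and open symbols are fits in which 1 group holds at most 3 reads per library, whose size depends on the prior count. The right panel shows most proximal values far below 0 and distal values near or above 0, with Dpp4 above 0 in all 4 settings.

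Mep1a and Mep1b encode the subunits of meprin, a zinc metalloprotease that cleaves luminal peptides, mucins and cytokines. Both rose on niche-factor withdrawal in every background except proximal Cdx2-sgRNA. Mep1a (chr17:43474324-43502812, minus strand, GRCm38, the gene whose start window is printed above) had 1815 and 1751 reads in proximal Scramble-sgRNA WENR-minus against 516 and 255 in WENR-plus. Its distal Scramble-sgRNA libraries held 3170 and 1944 reads in WENR-minus against 438 and 197 in WENR-plus, and its distal Cdx2-sgRNA libraries 4391 and 5481 against 382 and 428. No WENR-minus library of these 3 backgrounds overlapped its WENR-plus counterparts. The log2 fold change of Mep1a was 2.36 (adjusted p = 0.00183, SE 0.41) in proximal Scramble-sgRNA, 3.56 (adjusted p = 0.000124, SE 0.43) in distal Scramble-sgRNA and 4.22 (adjusted p = 2.48e-05, SE 0.44) in distal Cdx2-sgRNA.

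In proximal Cdx2-sgRNA organoids Mep1a had 11 and 8 reads in WENR-minus, then 39 and 21 in WENR-plus. These are the lowest 4 of the 16 libraries, and here the WENR-minus values lay under the WENR-plus values without passing the test (log2 fold change −1.48, adjusted p = 0.134, SE 0.61). Against proximal Scramble-sgRNA, Mep1a was 168.8-fold lower in WENR-minus (0.620 ± 0.278 against 101.9 ± 15 CPM, log2 fold change −7.40, adjusted p = 4.94e-06, SE 0.56) and 11.8-fold lower in WENR-plus (log2 fold change −3.57, adjusted p = 0.000388, SE 0.47). In distal organoids it stood at 415 ± 61.4 CPM with Cdx2-sgRNA and 191.6 ± 74.0 CPM with Scramble-sgRNA in WENR-minus, with no overlap but adjusted p = 0.0943, and at 22.3 ± 0.525 and 16.3 ± 8.02 CPM in WENR-plus. The proximal response to the guide was lower than the distal one by a log2 difference of −8.51 (adjusted p = 1.78e-05, SE 0.68) in WENR-minus and −4.02 (adjusted p = 0.00326, SE 0.61) in WENR-plus.

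Mep1b, the membrane-anchored subunit, was likewise highest in distal Cdx2-sgRNA WENR-minus and lowest in proximal Cdx2-sgRNA. Its reads were 2397 and 3654 in proximal Scramble-sgRNA WENR-minus, 2510 and 1321 in distal Scramble-sgRNA WENR-minus and 3797 and 3849 in distal Cdx2-sgRNA WENR-minus. The corresponding WENR-plus libraries held 281 and 332, 284 and 229, and 382 and 345 reads. Proximal Cdx2-sgRNA libraries held 7 and 8 reads in WENR-minus, then 11 and 11 in WENR-plus, apart from all others. WENR-minus exceeded WENR-plus by a log2 fold change of 3.36 (adjusted p = 0.000145, SE 0.31) in proximal Scramble-sgRNA, 3.44 (adjusted p = 3.67e-05, SE 0.31) in distal Scramble-sgRNA and 4.00 (adjusted p = 6.63e-06, SE 0.32) in distal Cdx2-sgRNA. With the Cdx2 guide Mep1b was 358.7-fold lower in proximal WENR-minus (0.471 ± 0.0683 against 169.5 ± 29.6 CPM, adjusted p = 2.80e-07) and 26.8-fold lower in proximal WENR-plus (adjusted p = 1.43e-05). In distal WENR-minus it was 2.23-fold higher (321.6 ± 0.446 against 143.9 ± 69.6 CPM, adjusted p = 0.0284). This distal call was lost without either Cdx2-sgRNA library or without Scramble-sgRNA replicate 2 (adjusted p = 0.0979, 0.119 and 0.165), and when the fit held those 4 libraries alone (adjusted p = 0.0948). The guide's effect differed between regions by a log2 difference of −9.65 (adjusted p = 8.82e-07, SE 0.52) in WENR-minus and −5.34 (adjusted p = 0.000108, SE 0.49) in WENR-plus.

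The medium response itself differed between guides in proximal organoids, by −3.83 for Mep1a (adjusted p = 0.0216, SE 0.72) and −3.74 for Mep1b (adjusted p = 0.0159, SE 0.62) on the log2 scale. Leaving out 1 of 5 libraries for Mep1a (proximal Cdx2-sgRNA WENR-minus replicate 2 or WENR-plus replicate 1, or Scramble-sgRNA WENR-minus replicate 1 or either WENR-plus replicate) brought the adjusted p to between 0.0537 and 0.0872, and fitting only the groups compared brought it to 0.0599. For Mep1b, leaving out proximal Cdx2-sgRNA replicate 2 in either medium or Scramble-sgRNA WENR-plus replicate 1 brought it to between 0.0513 and 0.0610. Between regions, neither meprin gene passed the test in Scramble-sgRNA organoids, with log2 values of −0.91 (adjusted p = 0.163, SE 0.39) and 0.24 (adjusted p = 0.646, SE 0.28) for proximal against distal in WENR-minus. In Cdx2-sgRNA organoids both were lower in proximal cultures, by −9.43 (SE 0.60) and −9.41 (SE 0.44) in WENR-minus and by −3.73 (SE 0.47) and −5.03 (SE 0.39) in WENR-plus.

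**Figure D3:**
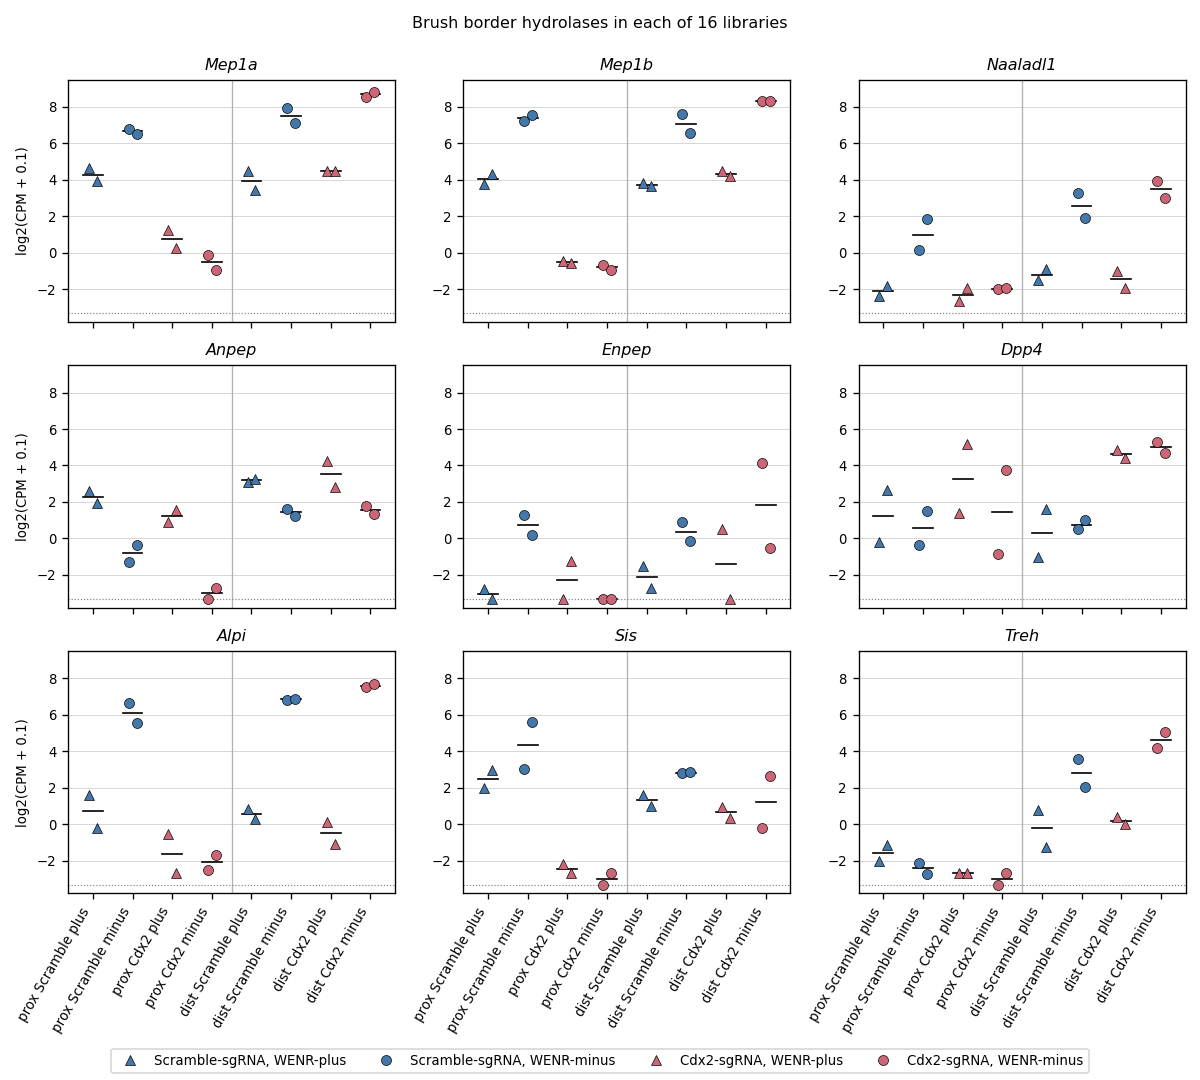
Level of each member in each of the 16 libraries, as log2 of CPM plus 0.1, in 1 panel per gene with the 8 groups along the horizontal axis and 1 point per library. In Mep1a and Mep1b the proximal Cdx2-sgRNA points lie at the bottom and the other WENR-minus points at the top, in Alpi 1 proximal Cdx2-sgRNA WENR-plus point lies above a distal Cdx2-sgRNA WENR-plus point, Anpep is higher in WENR-plus, and Dpp4 is high in distal Cdx2-sgRNA and in replicate 2 of proximal Cdx2-sgRNA.

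Alpi, the intestinal alkaline phosphatase, is a lipid-anchored enzyme that removes phosphate from nucleotides and from bacterial lipopolysaccharide. It rose on withdrawal in the same 3 backgrounds as the meprins. Its response was the largest among members called higher in both distal backgrounds, whereas in proximal Scramble-sgRNA the counting interval of Naaladl1, given below, spans its value. Its reads were 1603 and 902 in proximal Scramble-sgRNA WENR-minus against 61 and 13 in WENR-plus, 1451 and 1648 against 34 and 21 in distal Scramble-sgRNA, and 2212 and 2421 against 17 and 7 in distal Cdx2-sgRNA. The groups did not overlap, and the log2 fold changes were 5.27 (adjusted p = 0.000324, SE 0.62), 6.33 (adjusted p = 5.8e-05, SE 0.66) and 8.18 (adjusted p = 1.14e-05, SE 0.73). In proximal Cdx2-sgRNA organoids it had 1 and 4 reads in WENR-minus, then 10 and 1 in WENR-plus. Against Scramble-sgRNA this was a log2 fold change of −8.83 in WENR-minus (adjusted p = 2.60e-05, SE 0.84) and −2.59 in WENR-plus (adjusted p = 0.0428, SE 0.84). The WENR-plus call was lost without proximal Scramble-sgRNA replicate 1 (adjusted p = 0.440), without Cdx2-sgRNA replicate 2 (adjusted p = 0.230), with length-scaled counts (0.0509) or with only those 4 libraries fitted (0.190). In distal organoids Alpi stood at 194.8 ± 10.8 CPM with Cdx2-sgRNA and 114.9 ± 4.58 with Scramble-sgRNA in WENR-minus (log2 fold change 0.76, adjusted p = 0.364, SE 0.50). The guide's effect in WENR-minus differed between regions by −9.59 (adjusted p = 0.000113, SE 0.99) on the log2 scale.

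The difference of the Alpi medium response between guides in proximal organoids (adjusted p = 0.0421) was lost on leaving out any of 7 of the 8 libraries involved, the exception being Scramble-sgRNA WENR-minus replicate 2, with adjusted p values from 0.0515 to 0.612, and with only the groups compared fitted (0.118). Alpi has close relatives in Akp3 and Alppl2, and reads of these genes may have been divided between them. Alppl2 had 33 to 64 reads in proximal Scramble-sgRNA WENR-minus and 0 to 1 in proximal Cdx2-sgRNA WENR-minus.

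The remaining peptidases were at lower levels and did not move as 1 group. Naaladl1, a membrane peptidase related to glutamate carboxypeptidase II, rose on withdrawal in the same backgrounds as the meprins. Its reads were 16 and 66 in proximal Scramble-sgRNA WENR-minus against 2 and 3 in WENR-plus, 125 and 50 against 5 and 8 in distal Scramble-sgRNA, and 182 and 96 against 7 and 3 in distal Cdx2-sgRNA. None of these pairs of groups overlapped. The log2 fold change was 4.25 (adjusted p = 0.00116, SE 0.76) in distal Scramble-sgRNA and 5.36 (adjusted p = 0.000232, SE 0.80) in distal Cdx2-sgRNA. In proximal Scramble-sgRNA the ratio of scaled reads, 82 against 5 over the libraries, was 17.6 (95% counting interval 7.23 to 55.5, adjusted p = 0.00498). Such intervals and floors cover counting error only, since reads of amplified libraries are not independent molecules. Proximal Cdx2-sgRNA libraries held 2 and 3 reads in WENR-minus, then 1 and 3 in WENR-plus, at the floor. The WENR-minus value was 15-fold under that of Scramble-sgRNA (95% counting interval 6.19 to 47.5, adjusted p = 0.00575).

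Enpep, the aminopeptidase that removes N-terminal acidic residues and is also known from pericytes and kidney, was low and irregular. It had 37 and 20 reads in proximal Scramble-sgRNA WENR-minus against 1 and 0 in WENR-plus, and 23 and 11 against 5 and 1 in distal Scramble-sgRNA. Neither change passed the test, although neither pair of groups overlapped (adjusted p = 0.0905 and 0.223). The distal Scramble-sgRNA change passed when only those libraries were fitted (log2 fold change 3.02, adjusted p = 0.0289) and with no filter on low counts (0.0008). In distal Cdx2-sgRNA replicate 1 held 210 reads in WENR-minus and 23 in WENR-plus, whereas replicate 2 held 7 and 0. The fitted log2 fold change there was 3.80 (adjusted p = 0.0836, SE 1.65), and it passed with no filter on low counts (3.855, adjusted p = 4.16e-07). It became −0.16 without WENR-minus replicate 1. Without WENR-plus replicate 1 it was 10.3 and without WENR-minus replicate 2 it was 4.79, and both were called. Proximal Cdx2-sgRNA held 0 and 0 reads in WENR-minus, then 0 and 6 in WENR-plus. Relative to a floor of 3 reads per library, Enpep was at least 8.75-fold higher in proximal Scramble-sgRNA WENR-minus, where the test was not passed (adjusted p = 0.0691). By the mean of the distal libraries, it was at least 48.1-fold higher in distal than in proximal Cdx2-sgRNA WENR-minus (adjusted p = 0.0121). These distal libraries stood at 17.8 and 0.586 CPM, so the bound rests on replicate 1. The call was lost without distal replicate 1 or proximal replicate 2.

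Anpep, aminopeptidase N, trims neutral residues from peptides and moved opposite to the other called members. It had 5 and 13 reads in proximal Scramble-sgRNA WENR-minus against 125 and 64 in WENR-plus, 39 and 31 against 170 and 175 in distal Scramble-sgRNA, and 39 and 29 against 332 and 134 in distal Cdx2-sgRNA. Every WENR-minus library lay under both WENR-plus libraries of its background. Anpep fell by 3.27 (adjusted p = 0.00211, SE 0.58), 1.78 (adjusted p = 0.0171, SE 0.52) and 2.19 (adjusted p = 0.00482, SE 0.52) on the log2 scale. The distal Scramble-sgRNA call was lost without any 1 of its 4 libraries (adjusted p from 0.0509 to 0.107) and with length-scaled counts (0.0882), and the distal Cdx2-sgRNA call without WENR-plus replicate 1 (0.0903) or WENR-minus replicate 2 (0.0525). In proximal Cdx2-sgRNA organoids it had 0 and 1 reads in WENR-minus, then 30 and 54 in WENR-plus, a ratio of 75.2 between media (95% counting interval 13.1 to 3006, adjusted p = 0.00281). That call was lost when these 4 libraries were fitted alone (adjusted p = 0.122).

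Against Scramble-sgRNA, Anpep in proximal WENR-minus was 16.5-fold lower with the Cdx2 guide (18 against 1 reads, 95% counting interval 2.61 to 687, adjusted p = 0.0147). This call was lost without either Cdx2-sgRNA library or without Scramble-sgRNA replicate 2 (adjusted p = 0.0762, 0.0503 and 0.0972), and with length-scaled counts (0.210). In proximal WENR-plus its log2 fold change was −1.09 (adjusted p = 0.144, SE 0.51). In distal organoids the guide gave 0.13 (adjusted p = 0.914, SE 0.52) in WENR-minus and 0.54 (adjusted p = 0.968, SE 0.49) in WENR-plus. In WENR-minus Scramble-sgRNA organoids Anpep was lower in proximal cultures than in distal ones (log2 fold change −2.36, adjusted p = 0.0274, SE 0.58), a call that did not hold without any 1 of those 4 libraries (adjusted p from 0.0748 to 0.129), with length-scaled counts (0.0526) or with those libraries fitted alone (0.0610). In Cdx2-sgRNA WENR-plus it was also lower in proximal organoids (−2.50, adjusted p = 0.00506, SE 0.52), though not without distal replicate 1 (0.0691) or with those 4 libraries alone (0.0587).

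Dpp4, which removes dipeptides after proline or alanine and is also known from lymphocytes and endothelium, passed the test for medium in none of the 4 backgrounds, at log2 fold changes from −1.44 to 0.39 (smallest unadjusted p 0.311). Distal Cdx2-sgRNA libraries held 458 and 311 reads in WENR-minus, then 495 and 397 in WENR-plus, against 17 and 27 and 8 and 54 in distal Scramble-sgRNA. The groups did not overlap in either medium. Dpp4 was 19.8-fold higher in WENR-minus (32.4 ± 9.01 against 1.62 ± 0.444 CPM, log2 fold change 4.31, SE 1.58) with adjusted p = 0.110, and 15-fold higher in WENR-plus (24.7 ± 5.21 against 1.65 ± 1.77 CPM) with adjusted p = 0.653. On leaving out 1 library the WENR-plus log2 fold change ran from 3.085 to 5.96. The WENR-minus difference passed in DESeq2 (adjusted p = 0.0341), with only those 4 libraries fitted (0.0162) and with the replicate number as a block (0.0364), and with no filter on low counts (1.43e-28). With no filter the distal WENR-plus difference passed too (log2 fold change 3.90, adjusted p = 1.73e-24). The no-filter p-values of Dpp4 do not reflect the spread between replicates, as its proximal values below show.

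In proximal Cdx2-sgRNA organoids Dpp4 had 6 and 256 reads in WENR-minus, then 43 and 679 in WENR-plus, against 11 and 52 and 16 and 103 with Scramble-sgRNA. Replicate 2 held more reads than replicate 1 in all 4 proximal groups, and most in Cdx2-sgRNA. The log2 fold change with the guide was 2.04 (adjusted p = 0.315, SE 1.46) in WENR-minus and 2.50 (adjusted p = 0.225, SE 1.42) in WENR-plus, and it became −1.93 and −0.44 without Cdx2-sgRNA replicate 2. With no filter on low counts both passed (adjusted p = 2.90e-08 and 3.65e-13). The Cdx2-sgRNA and Scramble-sgRNA libraries overlap in both media, so these p-values do not reflect the spread between replicates. Summed leukocyte markers did not exceed 7.91 CPM in any library, with 2 to 5 of the 6 at 0 reads throughout a group. They were higher with Cdx2-sgRNA in distal organoids, without overlap, at 1.67 to 2.88 against 0.645 to 1.46 CPM in WENR-minus and 2.65 to 7.91 against 1.29 to 1.5 CPM in WENR-plus, and lower with it in proximal organoids, at 0.423 to 1.63 against 2.03 to 3.59 CPM and 0.116 to 0.476 against 3.85 to 5.5 CPM. The 1 leukocyte gene tested, Itgam, was called lower in both proximal comparisons and not called in the distal ones (unadjusted p = 0.0245 in WENR-plus), and the part of these levels in the Dpp4 values was not tested.

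Sis and Treh encode the disaccharidases sucrase-isomaltase and trehalase. Sis (chr3:72888557-72967863, minus strand, GRCm38), whose window above carries CAATAAA, had its highest values in proximal Scramble-sgRNA WENR-minus, with 130 and 932 reads. Proximal Scramble-sgRNA WENR-plus held 80 and 132 reads. Distal Scramble-sgRNA held 91 and 98 reads in WENR-minus, then 59 and 35 in WENR-plus. Distal Cdx2-sgRNA held 9 and 74 reads in WENR-minus, then 32 and 22 in WENR-plus, and proximal Cdx2-sgRNA 0 and 1 and then 2 and 1. The last 4 libraries were at or under the floor of 3 reads, below the other 12.

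The ratio of Sis between Scramble-sgRNA and Cdx2-sgRNA in proximal WENR-minus was 973 (1062 reads against 1, 95% counting interval 174 to 38483, adjusted p = 0.000586). Of the 1062 reads, 932 came from Scramble-sgRNA replicate 2. On leaving out 1 library the fitted log2 fold change with the guide ran from −11.9 to −7.74. In proximal WENR-plus the ratio was 67.6 (212 against 3 reads, interval 22.8 to 330.2, adjusted p = 0.00601), a call lost without Cdx2-sgRNA replicate 2. In distal organoids the guide's log2 fold change was −1.01 (adjusted p = 0.504, SE 0.87) in WENR-minus and −0.69 (adjusted p = 0.974, SE 0.90) in WENR-plus. Sis did not pass the test for medium in any background, with 2.29 (adjusted p = 0.0673, SE 0.86) in proximal Scramble-sgRNA and 1.53 (adjusted p = 0.186, SE 0.87) in distal Scramble-sgRNA. The proximal value rests on unequal replicates, and its log2 fold change ran from 0.54 to 3.09 on leaving out 1 library. It passed in DESeq2 (adjusted p = 0.0357), with no filter on low counts (1.87e-07) and without WENR-minus replicate 1 (3.09). Proximal against distal Scramble-sgRNA gave 2.01 (adjusted p = 0.164, SE 0.86) in WENR-minus.

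Treh (chr9:44673233-44686305, plus strand, GRCm38) was counted mainly in distal organoids. It had 152 and 56 reads in distal Scramble-sgRNA WENR-minus against 32 and 6 in WENR-plus, and 215 and 392 against 21 and 17 in distal Cdx2-sgRNA. The distal media did not overlap, with log2 fold changes of 3.01 (adjusted p = 0.00554, SE 0.71) and 4.59 (adjusted p = 0.000399, SE 0.74). The distal Scramble-sgRNA call was lost without WENR-minus replicate 1 (log2 fold change 2.04, adjusted p = 0.0669). In proximal organoids the counts were 2 and 1 in Scramble-sgRNA WENR-minus, 3 and 6 in WENR-plus, and 0 or 1 in all 4 Cdx2-sgRNA libraries, too few for a fold between the guides. In WENR-minus the distal to proximal ratio was 90.9 with Scramble-sgRNA (208 against 3 reads, 95% counting interval 30.7 to 444.3, adjusted p = 0.00237) and 827 with Cdx2-sgRNA (607 against 1, interval 147.8 to 32706, adjusted p = 5.05e-05). Both intervals cover counting error only and overlap.

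Compared by region over all members, 2 were lower in proximal Scramble-sgRNA than in its distal counterpart in WENR-minus (Treh and Anpep), beside 6.08% of all genes called and 3.2% called lower, a count of 1 without any 1 of these 4 libraries. In WENR-plus edgeR and DESeq2 called 0 members, and 1 was at an unadjusted p under 0.05 (Treh). There edgeR called 1.75% of all genes, and DESeq2 called 537 of 15289. In Cdx2-sgRNA organoids 8 members were lower in proximal cultures in WENR-minus, all but Dpp4, beside 34.6% of all genes called and 16.5% called lower. In WENR-plus 5 were lower (Mep1a, Mep1b, Anpep, Sis and Treh), beside 17% called and 9.57% called lower. That count was 2 without distal Cdx2-sgRNA WENR-plus replicate 1 and 3 without either proximal library. The Sis and Treh calls in WENR-plus rest on 54 against 3 and 38 against 2 reads. The Sis call was lost without any 1 of the 4 libraries (adjusted p from 0.0690 to 0.192) and the Treh call without either proximal library or distal replicate 1 (0.0611 to 0.0894). In WENR-minus the Sis call was lost without distal replicate 2 (adjusted p = 0.0527). The 4 Cdx2-sgRNA groups are shared between this comparison and that with Scramble-sgRNA, so the counts are not independent. Marker sums differed between the Cdx2-sgRNA regions as well. In WENR-minus, proximal against distal, they were 517.4 to 1591 against 14895 to 15979 CPM for colonocyte markers (4 of 6 called lower), 44.8 to 50.4 against 4857 to 12819 CPM for goblet markers (5 of 5 lower) and 546.1 to 653.7 against 92.4 to 173.5 CPM for proliferation markers (4 of 4 higher). All 5 enteroendocrine and all 4 tested small intestine markers were called lower too. In WENR-plus all 5 goblet and all 5 enteroendocrine markers were called lower, as were 2 of 6 colonocyte markers and 1 of 4 proliferation markers, with Krt20 called higher. In Scramble-sgRNA WENR-minus the regions overlapped in the colonocyte and goblet sums, and the enteroendocrine sums were 115.8 to 188.5 CPM in proximal and 350 to 449.4 CPM in distal organoids. The median log2 fold change of the 6 colonocyte markers, proximal against distal, was nevertheless −2.73, beside 0.07 over all genes. Small intestine sums were 297.7 to 423.8 CPM in proximal and 86.3 to 125.8 CPM in distal organoids, although the median log2 fold change of that list was −0.38. The part of these shifts in the region results was not tested.

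Other hydrolases of the same membrane were described by a list of 20 genes, 13 of which passed the filter on low counts. In proximal WENR-minus 5 were lower and 2 higher with Cdx2-sgRNA, beside 12.1% of all genes called lower and 9.04% called higher, and in proximal WENR-plus 3 were lower and 2 higher, beside 8.94% and 6.93% (median log2 fold change −1.04 and −0.70 with genes at the floor at their bound). Dpep1, a dipeptidase, stood at 0.281 against 82.8 CPM in WENR-minus (log2 fold change −8.18, adjusted p = 9.33e-05), and Mgam, the maltase-glucoamylase related to Sis, at 9.45 against 360.7 CPM (−5.27, adjusted p = 7.56e-05). Xpnpep2, an aminopeptidase for X-proline bonds, held 311 to 459 reads with Scramble-sgRNA and 2 to 4 with Cdx2-sgRNA. Cpm, a carboxypeptidase, went the other way in WENR-plus (45.3 against 4.05 CPM, log2 fold change 3.48, adjusted p = 0.00450). In distal WENR-minus Cpm (104.3 against 13.8 CPM) and Enpp3 (35.8 against 3.02 CPM) were higher and Dpep1 (30.9 against 187.2 CPM) lower with the guide, beside 2.24% of all genes called higher and 3% called lower. On withdrawal of the niche factors 2 of the 13 rose in proximal Scramble-sgRNA, 4 in distal Scramble-sgRNA, 6 in distal Cdx2-sgRNA and 1 in proximal Cdx2-sgRNA (Naaladl2), beside 8.73%, 12.2%, 14.9% and 3.42% of all genes called higher. Dpep1 was among those that rose in the first 3 of these comparisons.

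Transporters that take up the products of these enzymes were followed in a list of 13 genes, 8 of which were tested. On withdrawal 5 rose in each Scramble-sgRNA background and 6 in distal Cdx2-sgRNA, beside 8.73% of all genes called higher in proximal Scramble-sgRNA, 12.2% in distal Scramble-sgRNA and 14.9% in distal Cdx2-sgRNA. The list's median was 1.91, 2.63 and 4.30. In proximal Cdx2-sgRNA edgeR called 0 of the 8, with 1 at an unadjusted p under 0.05, beside 6.4% of all genes called and 3.42% called higher. Slc3a1, a subunit of the cystine and dibasic amino acid transporter, rose from 1.1 to 58.1 CPM in proximal Scramble-sgRNA (log2 fold change 5.72, adjusted p = 0.000280), and Slc15a1, the dipeptide transporter, from 1.42 to 429.6 CPM in distal Cdx2-sgRNA (8.24, adjusted p = 3.47e-06). With the Cdx2 guide 5 of the 8 were lower in proximal WENR-minus, beside 12.1% of all genes, among them Slc5a1, the sodium-glucose cotransporter (0.312 against 64.4 CPM, −7.56, adjusted p = 5.11e-05). In distal WENR-minus Slc15a1 was the 1 transporter called, at 429.6 against 56.3 CPM (2.93, adjusted p = 0.00352), with 4 of the 8 at an unadjusted p under 0.05 and 5.25% of all genes called (2.24% higher).

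Transcription factors of enterocytes were followed in a list of 14 genes, 13 of which were tested. In proximal organoids 6 were lower and 1 higher with Cdx2-sgRNA in each medium, beside 12.1% and 9.04% of all genes called lower and higher in WENR-minus, against 8.94% and 6.93% in WENR-plus, the targeted Cdx2 among those lower (median log2 fold change −1.27 in WENR-minus and −1.36 in WENR-plus). Cdx1, the paralog of Cdx2, stood at 0.366 against 107.8 CPM in WENR-minus (log2 fold change −8.26, adjusted p = 4.70e-08), and Hnf4a at 142 ± 18.5 against 839.8 ± 108 CPM (−2.57, adjusted p = 0.000115). In WENR-plus Hnf4a stood at 48.6 ± 24.3 against 252.1 ± 3.41 CPM. In distal organoids edgeR called 0 of the 13 in either medium, with 2 in WENR-minus and 1 in WENR-plus at an unadjusted p under 0.05, beside 5.25% and 0.262% of all genes called, and Hnf4a stood at 1725 ± 35.6 and 1347 ± 18 CPM in WENR-minus. Hnf4a rose on withdrawal in all 4 backgrounds, proximal Cdx2-sgRNA included (log2 fold change 1.55, adjusted p = 0.00786). Klf4, a factor of differentiated epithelium, also rose there (332.6 against 91.8 CPM, 1.86, adjusted p = 0.00461), where none of the 9 hydrolases was called higher by edgeR (2 were at an unadjusted p under 0.05, both lower), beside 3.42% of all genes called higher.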

How the data were processed

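Bulk RNA-seq of 16 organoid libraries was analysed. The authors quantified reads with Salmon 1.1.0, and the deposited values are estimated counts and TPM per transcript. Estimated counts were summed to 54123 genes, then rounded, with a GENCODE vM21 annotation (GRCm38, 0.257% to 0.509% of reads unmatched). The main test was edgeR 4.0.16 (R 4.3.3) on all 16 libraries with 8 group coefficients, low-count filtering, TMM scaling (CPM) and glmQLFTest with Benjamini-Hochberg adjustment over 15289 genes. Its fitting code was tested on simulated data. Calls required an adjusted p below 0.05 together with a log2 fold change beyond 1 either way. Where a group held at most 3 reads in each library, a ratio with an exact 95% counting interval or a bound replaces the fitted value. All 9 members, Cdx2 in every group, and up to 4 called genes per list and comparison with the largest changes were named, as were the 2 genes most like each member. Members and lists were chosen with earlier results of these data known. Deposited effective lengths entered only the length-scaled alternative. Alternatives were RLE scaling, DESeq2 1.42.0, length-scaled counts, other filters, subsets of libraries, a replicate block, no fold threshold and removal of mitochondrial ribosomal RNA. Some genes of the lists and 1 planned promoter word are not reported here.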

Additional observations from a re-analysis of the deposited data

Results flagged for a closer look

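For 6 members the effect of Cdx2-sgRNA in WENR-minus differed between proximal and distal organoids by the interaction term (edgeR's quasi-likelihood test with Benjamini-Hochberg adjustment). The log2 difference was −8.51 for Mep1a (SE 0.68, adjusted p = 1.78e-05), −9.65 for Mep1b (SE 0.52, adjusted p = 8.82e-07) and −9.59 for Alpi (SE 0.99, adjusted p = 0.000113), and these 3 held on leaving out any 1 library of the 4 groups. It was −8.53 for Sis (SE 1.74, adjusted p = 0.00732), −3.87 for Anpep (SE 1.14, adjusted p = 0.0387) and −4.62 for Naaladl1 (SE 1.05, adjusted p = 0.0128), where the proximal Cdx2-sgRNA libraries held 0 to 3 reads and the size depends on the prior count. Anpep lost the call without any 1 of 7 of the 8 libraries, all except proximal Scramble-sgRNA WENR-minus replicate 1 (adjusted p from 0.0570 to 0.134). It also lost it in DESeq2 (0.0533), with only the groups compared (0.0626) and with length-scaled counts, where the log2 difference was −1.52 (0.397). Naaladl1 lost the call without proximal Cdx2-sgRNA replicate 2 (0.0559).

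In WENR-plus the same difference was called for Mep1a, at −4.02 (SE 0.61, adjusted p = 0.00326), and Mep1b, at −5.34 (SE 0.49, adjusted p = 0.000108). In proximal organoids the response to WENR-minus differed between Cdx2-sgRNA and Scramble-sgRNA by −3.83 for Mep1a (SE 0.72, adjusted p = 0.0216), −3.74 for Mep1b (SE 0.62, adjusted p = 0.0159) and −6.24 for Alpi (SE 1.5, adjusted p = 0.0421). With only the groups compared fitted, the adjusted p was 0.0599 for Mep1a and 0.118 for Alpi. No explanation of these differences was tested.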

How the results depend on the processing

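Counts of members called, leaving out 1 library at a time, ranged from 2 to 4 for Cdx2-sgRNA in proximal WENR-plus (4 with all libraries), 0 to 1 for Cdx2-sgRNA in distal WENR-minus (1), 1 to 1 for region in Scramble-sgRNA WENR-minus (2), 2 to 4 for region in Cdx2-sgRNA WENR-plus (5) and 0 to 3 for the proximal difference in medium response (3). Where this left 1 library in a group, that library was assumed to vary like the other groups. With no filter on low counts the counts became 3 for medium in proximal Cdx2-sgRNA (1 in the main analysis), 5 for Cdx2-sgRNA in distal WENR-minus (1), 2 in distal WENR-plus (0), 4 and 1 for region in Scramble-sgRNA in WENR-minus (2) and WENR-plus (0), 5 and 1 for the difference in medium response in proximal (3) and distal (0) organoids, and 2 for the difference of that response between regions (0). The no-filter p-values of Dpp4 in proximal organoids did not reflect the spread between its replicates, so the no-filter counts may be too high. DESeq2 gave 2 for medium in proximal Cdx2-sgRNA and 3 for Cdx2-sgRNA in distal WENR-minus. Fitting only the groups compared gave 0 for medium in proximal Cdx2-sgRNA, 1 for region in Scramble-sgRNA WENR-minus and 1 for the proximal difference in medium response, and length-scaled counts gave 1 for that region comparison. The cause of these shifts was not tested. Fold changes of members were followed through the alternatives only where called in the main analysis or picked for printing. Among these, Dpp4 reversed for Cdx2-sgRNA in proximal WENR-minus (−1.93 to 3.37 over left-out libraries) and WENR-plus (−0.44 to 4.68). Enpep reversed for medium in distal Cdx2-sgRNA (−0.16 to 10.3). Under the alternatives that keep all libraries of a comparison, 405 of these fitted values kept their direction and their side of the threshold. There 14 lost and 12 gained a call, and none changed direction. Gains of a call among the members' other changes are not in this tally. No member had 10 counts in every library, so that filter gave no value. The replicate numbers do not name mice. Replicate 1 minus replicate 2 correlated between groups at −0.06 to 0.59 over 28 pairs of groups, 9 of them over 0.1. The replicate block gave 3 members called for Cdx2-sgRNA in distal WENR-minus and left the other counts within 1.5 times. Members under about 10 reads in a group (most in proximal Cdx2-sgRNA) are limited by depth.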

Other observations

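The genes whose level followed each member most closely over the 16 libraries were found by Pearson r of log2 CPM, as a description in which all points share the group structure. Mep1b was nearest to Cdhr5, a protocadherin of the microvillus tips (0.99), and Cyp2c55 (0.99), and Mep1a to Mgam2-ps (0.99) and Ceacam20 (0.99), another brush border protein. Alpi was nearest to Fbxo25 (0.98) and Hectd3 (0.98), Naaladl1 to Sprr2a3 (0.98) and Ifih1 (0.96), Treh to Pla2g12b (0.97) and Tnni1 (0.97), and Sis to Tnfsf15 (0.95) and Fbp2 (0.94). Anpep was nearest to Itpr1 (0.93) and Nptx1 (0.90), Enpep to Gsdmc4 (0.88) and Gsdmc3 (0.87), and Dpp4 to Gm42428 (0.84) and C4bp (0.83).

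Reads of Mep1a were divided by the authors' quantification between the transcripts Mep1a-201 (2921 bases) and Mep1a-202 (2967 bases). In distal WENR-plus Mep1a-201 had 0 and 0 reads with either guide, and Mep1a-202 had 436 and 197 reads with Scramble-sgRNA and 382 and 428 with Cdx2-sgRNA. In distal WENR-minus Mep1a-201 had 2382 and 1601 reads with Scramble-sgRNA and 3500 and 4761 with Cdx2-sgRNA, 77.9% and 83.7% of the gene's reads. In proximal Scramble-sgRNA WENR-plus Mep1a-201 had 261 and 253 reads and Mep1a-202 had 255 and 0. The shares were not tested.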
